A study of Mus musculus with 14 samples.

Results

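Liver tumours of female Abcb11-/- mice were compared with the liver of wild-type females, across all expressed genes outside chromosomes X and Y. The comparison used 5 of the 14 RNA sequencing libraries of the series: 3 of tumour tissue from Abcb11-/- females (tumours 1 to 3) and 2 of liver from wild-type females (wild type 2 and 3; a wild-type female numbered 1 is not analysed here). All animals were of the strain C57BL/6J, the common inbred laboratory mouse, and were 52 weeks old. The labels give no treatment, no histology of the tumours and no statement of which part of Abcb11 was deleted, and they do not say whether each tumour came from its own animal. The other 9 libraries, from non-tumour liver of Abcb11-/- females (3), livers of Abcb11-/- males (3) and livers of wild-type males (3), entered the same fit, where they added to the estimate of the spread. Values of the non-tumour liver are set beside the tumour values where they help to place a result. The 5 libraries held 15326503 to 19480538 counts. Of the 50348 genes of the count table that lie outside X and Y, 17348 passed a filter on low counts and were tested.

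Abcb11 encodes the bile salt export pump, the transporter that moves bile salts from the hepatocyte into the bile canaliculus. Without it bile salts are retained in the hepatocyte, and loss of the human gene causes a childhood cholestasis in which liver tumours can form. Hepatocyte identity is held by a network of transcription factors (HNF4, FOXA, ONECUT and others) together with nuclear receptors that sense bile acids, fatty acids and foreign chemicals, and these control most of the metabolic genes described here.

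Abcb11 itself (chromosome 2, 69238282 to 69342616, minus strand, GRCm38) stood at 270.0 and 488 CPM (counts per 1000000 of a library total scaled by TMM) in wild types 2 and 3. It stood at 34.3, 23.2 and 18 CPM in tumours 1, 2 and 3 and at 21.1, 35.9 and 17.9 CPM in the non-tumour libraries. Every tumour library lay below both wild-type libraries, with a log2 fold change of −3.92 ± 0.38 (edgeR adjusted p = 0.000141). The value after ± is a standard error derived from the edgeR F statistic, here and below. The remaining reads do not check the label further, since the deleted part is not stated. In bulk tissue, fewer cells of a type and less RNA per cell cannot be told apart, and with no statement on separate animals the p-values measure the spread between these libraries.

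In all, 1683 genes outside X and Y differed between tumours and wild-type liver at an edgeR adjusted p under 0.05 (quasi-likelihood test, Benjamini-Hochberg), or 9.70% of those tested. Of these 694 were higher in tumours (4.0% of genes tested) and 989 lower (5.70%). A change of at least 4-fold was reached by 204 of the higher and 260 of the lower genes. Libraries did not overlap for 1682 of the 1683, while over all genes tested the 3 tumours lay above both wild-type libraries for 24.9% and below them for 27.7%. The median log2 fold change of all genes tested was 0.02. Wild type 3 weighed heavily on these counts. Without it 160 genes were called (22 higher, 138 lower), against 717 without wild type 2, 779 without tumour 2, 876 without tumour 3 and 1345 without tumour 1. In the fits without a wild-type library the one that is left is assumed to vary like the other groups. With each of the 5 libraries left out in turn, 141 genes were called every time (21 higher, 120 lower). Of the 193 called genes that are named in the text and in the closing observations, 163 stayed called without tumour 1, 115 without tumour 2, 122 without tumour 3, 87 without wild type 2 and 46 without wild type 3, and 38 in every case. Of the genes named in this section these were Abcb11, Acot4, Ahr, Aldoa, Clec2d, Cxcl12, Cyp2c37, Cyp3a16, Cyp4a14, E2f8, Fabp4, Fgf1, Foxa1, Ghr, Gstm3, Hsd17b7, Iigp1, Irs1, Nr1i3, Ppara, Prox1, Slco1b2, Sult2a8 and Tk1, and the noncoding A530001N23Rik, BC049987 and Gm45470. The others lost the call without at least 1 library but kept their direction. The 38 also include genes named only in the closing observations, such as Alpl and Hnrnpa3. Those were picked from the 141 genes, so that choice fixed their place among the 38 and in each count above.

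The direct comparison of tumours with non-tumour liver of the same genotype called 0 genes outside X and Y with edgeR (1192 at an unadjusted p under 0.05), 0 with limma-voom and 28 with DESeq2. The labels do not say whether tumour and non-tumour libraries came from the same mice, and the test treated them as separate. The 0 calls therefore do not show that the tissues are alike. No gene is given as particular to tumours, and non-tumour values stand beside several genes. The tumour and the non-tumour comparison share their wild-type libraries, so their values are only set side by side.

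**Figure D1:**
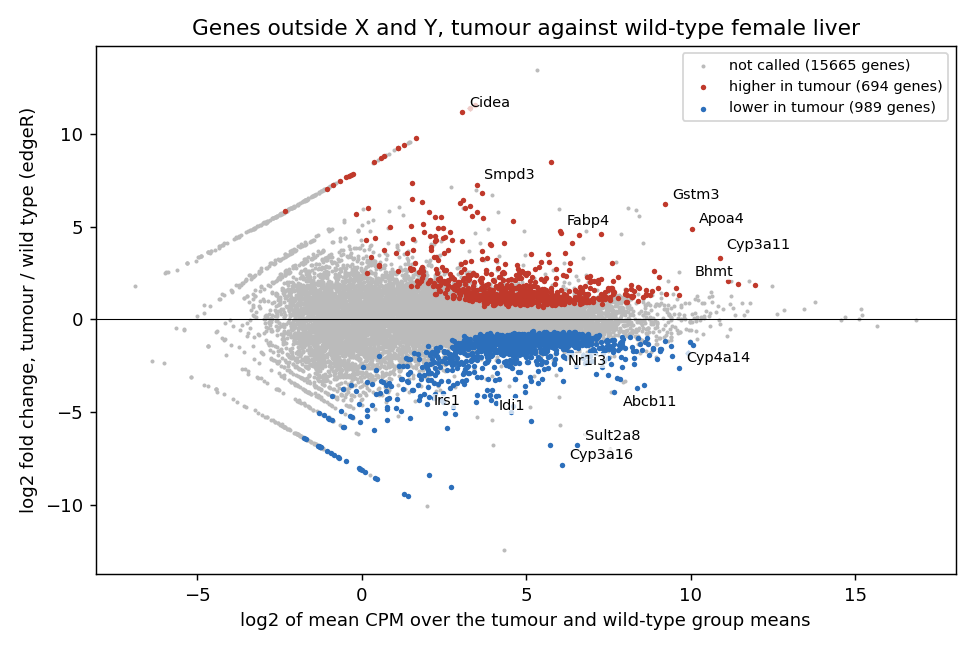
Log2 fold change of tumour over wild-type female liver for each of the 17348 genes tested (vertical axis) against the log2 of the mean CPM over both group means (horizontal axis). Red points are the 694 genes called higher and blue points the 989 called lower at an edgeR adjusted p under 0.05; the labelled genes are described in the text, and the straight rows of points at the lower left and upper left are genes without counts in 1 group.

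Hepatocyte markers were abundant in the tumours. All 17 hepatocyte markers examined were tested and edgeR called none (2 at an unadjusted p under 0.05; DESeq2 called 2 and limma-voom 3). Their summed level was 56925 to 100569 CPM in tumours, and 58887 and 57161 CPM in wild types 2 and 3. Albumin (Alb) and transthyretin (Ttr), plasma proteins secreted by hepatocytes, differed by 0.57 ± 0.48 and 0.89 ± 0.49 on the log2 scale, without a call (adjusted p = 0.473 and 0.259 in edgeR). Of 31 genes of the urea cycle and of amino acid catabolism edgeR also called none (4 at an unadjusted p under 0.05; 1 by DESeq2, 4 by limma-voom and 4 without tumour 1). Their summed level was uneven among tumours, at 15461, 4765 and 10492 CPM in tumours 1, 2 and 3. It was 9893 and 10947 CPM in wild types 2 and 3, so that tumour 2 lay below both. Of 31 cell cycle and mitosis genes edgeR called none (0 at an unadjusted p under 0.05; 0 by DESeq2, 3 by limma-voom). The summed level of the cell cycle genes was 100.1, 124 and 80.5 CPM in tumours 1, 2 and 3, and 53.5 and 43.8 CPM in wild types 2 and 3, so that every tumour lay above both wild types in the sum. Their median log2 fold change was 1.17. The proliferation marker Mki67 stood at 5.3 and 3.95 CPM in wild type and 14.6, 25.6 and 10.6 CPM in tumours (1.87 ± 1.46, adjusted p = 0.45).

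Of the 60 gene lists examined, the regulators of hepatocyte identity had the largest share of lower members. Of 25 liver transcription factors, nuclear receptors and their upstream receptors tested, 13 were lower in tumours and none was higher, and 21 had a negative log2 fold change. The median of the list was −0.81, against 0.02 over all genes tested. With tumour 1, 2, 3 or wild type 2, 3 left out in turn, 10, 10, 9, 8 and 9 members were called lower. In the non-tumour liver the median against the same wild types was also −0.81.

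Among the nuclear receptors, Nr1i3, the constitutive androstane receptor that senses foreign chemicals, stood at 203 and 295 CPM in wild type and 42.8, 20.2 and 34.6 CPM in tumours (−2.94 ± 0.38, edgeR adjusted p = 0.000625). The highest tumour lay far under the lower wild type. Ppara, the receptor that switches on fatty acid oxidation, went from 82 and 65.4 CPM to 7.85, 14 and 25.1 CPM (−2.23 ± 0.38, adjusted p = 0.00342). Nr5a2, which helps to drive bile acid synthesis, went from 45.6 and 54 to 24, 20.8 and 15.1 CPM (−1.32 ± 0.27, adjusted p = 0.00974). No tumour reached the lower wild-type library for any of these receptors. The estrogen receptor gene Esr1 also fell (−1.26 ± 0.28), though its tumour values of 14.5, 10.2 and 7.85 CPM lay nearer to those of wild type, 31.7 and 20.4 CPM. The bile acid receptor gene Nr1h4 (FXR), by contrast, was not called (−0.48 ± 0.32, adjusted p = 0.35), nor were its target Nr0b2 (0.94 ± 0.71) and the pregnane X receptor gene Nr1i2 (0.44 ± 0.31).

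Of the factors that bind hepatocyte promoters and enhancers, Foxa1, which opens chromatin in liver, fell from 33 and 32.1 to 10.2, 8.55 and 9.53 CPM (−1.79 ± 0.25, adjusted p = 0.000951). Both groups were tight for Foxa1 and lay far apart. Onecut1 (HNF6) went from 21.2 and 9.01 to 2.53, 1.53 and 1.88 CPM (−2.93 ± 0.53), and Foxa2 (−1.35) and Prox1, a factor of early liver development (190.5 and 164 CPM against 79.3, 58.7 and 77.3 CPM, −1.30 ± 0.21), fell as well. Hnf4a was not called: it stood at 298 and 366 CPM in wild type and 327, 200.4 and 286 CPM in tumours, which overlap.

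The growth hormone receptor gene Ghr stood at 436 and 323 CPM in wild type and 66.1, 97.2 and 110.5 CPM in tumours (−2.05 ± 0.31, adjusted p = 0.00169). Its signal transducer Stat5b changed less (65.3 and 88.8 against 50.2, 47.2 and 41 CPM, −0.74 ± 0.22, adjusted p = 0.0461), and the repressor gene Bcl6 fell by 1.58 on the log2 scale (adjusted p = 0.036). With any 1 of the 5 libraries left out neither Stat5b nor Bcl6 was called. Ahr, the receptor for dioxin-like chemicals, went from 74.8 and 92.4 to 26.4, 19.9 and 18.4 CPM (−1.96 ± 0.23, adjusted p = 0.000456). For Ahr, Foxa1, Prox1 and Nr1i3 each non-tumour library lay between the wild-type and the tumour libraries, for example at 42.1, 36.4 and 33.5 CPM for Ahr. For Ghr the non-tumour libraries, at 101.5, 131 and 84.6 CPM, overlapped the tumours. Between tumour and non-tumour liver edgeR called 0 members of this list. The share of all genes with this order was not counted.

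**Figure D2:**
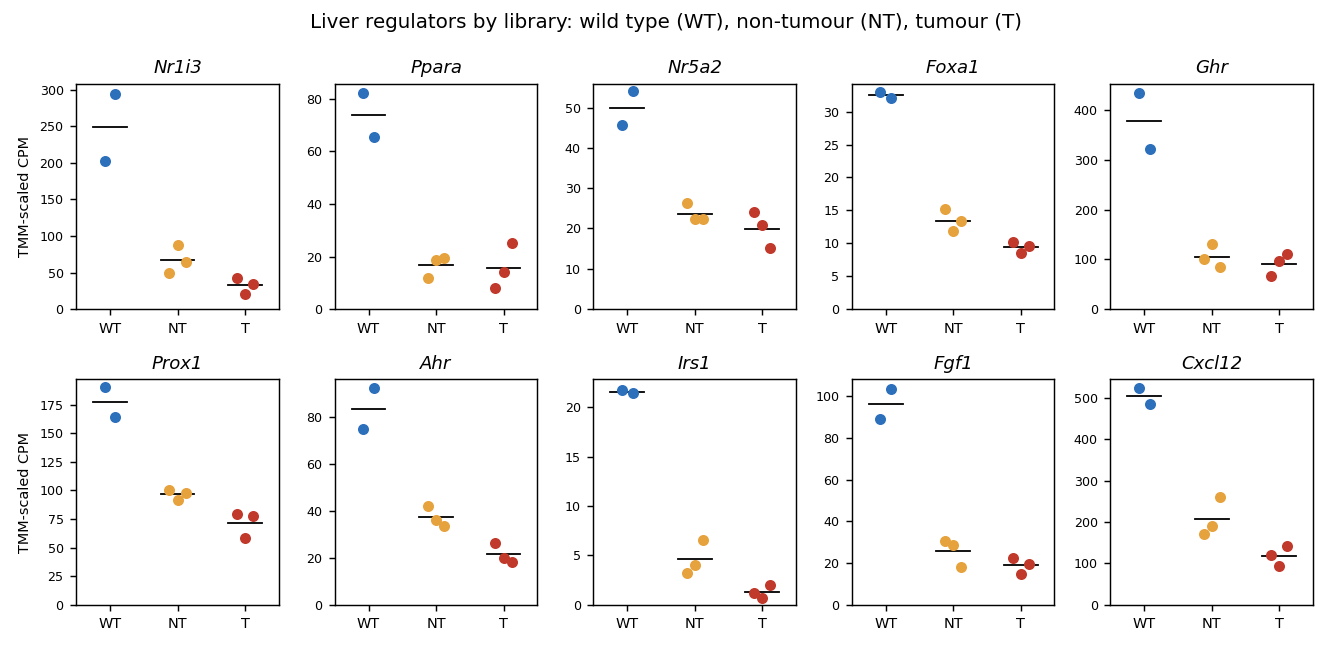
TMM-scaled CPM (vertical axes, from 0) of 10 genes in each library of wild-type (WT, blue, n = 2), non-tumour Abcb11-/- (NT, orange, n = 3) and tumour (T, red, n = 3) female liver; points are libraries and lines are group means. In all 10 panels every tumour lies below both wild-type libraries; Irs1 and Fgf1 are an insulin signalling adapter and a growth factor, and Cxcl12 a chemokine.

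Genes of bile acid handling moved in both directions. Of 19 bile acid synthesis genes 3 were lower and none was higher (median −0.37). With tumour 2, tumour 3, wild type 2 or wild type 3 left out the count was 0, 2, 0 and 1. The called members were Cyp7a1, which sets the rate of the classical route (437 and 196 CPM against 72.8, 25.6 and 18.7 CPM, −3.02 ± 0.64), the steroid-modifying Akr1c6 (254 and 174 CPM against 107, 37.8 and 37.2 CPM, −1.82 ± 0.43) and the peroxisomal thioesterase gene Acot8 (−1.0 ± 0.23). In non-tumour liver Cyp7a1 stood at 104, 236 and 167 CPM, above every tumour. Cyp8b1, which makes cholic acid, stood at 146 and 66.9 CPM in wild type and 35.3, 2.82 and 2.03 CPM in tumours, with a wide error (−3.0 ± 1.07, adjusted p = 0.102).

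Of 8 uptake carriers 2 were lower, and 1 without wild type 3. Slco1b2, the organic anion carrier of the sinusoidal membrane, went from 445 and 553 to 152, 164 and 134 CPM (−1.73 ± 0.27, adjusted p = 0.00206). Slc10a5, an orphan relative of the bile salt carriers, went from 48.5 and 44.1 to 4.2, 5.21 and 5.32 CPM (−3.23 ± 0.62, adjusted p = 0.00804). The main bile salt carrier Slc10a1 was not called (−0.66 ± 0.37, adjusted p = 0.275).

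Of 15 exporters 5 were lower, Abcb11 among them, and 2 were higher. The canalicular pump Abcc2, which exports conjugated bilirubin, stood at 702 and 901 CPM in wild type and 222, 250.5 and 327 CPM in tumours (−1.59 ± 0.34, adjusted p = 0.0118). The sterol exporters Abcg5 (−1.17) and Abcg8 (−1.61 ± 0.37) and the pump Abcc6 (−1.34) were lower too. Slc51b, a subunit of the basolateral bile acid exporter, rose from 0.187 and 0.337 CPM to 3.46, 19.4 and 35.2 CPM (6.14 ± 1.05, adjusted p = 0.00627), while its partner Slc51a was near 0 in all 5 libraries (0.0623 and 0.0481 CPM in wild type, 0.494, 0 and 0.253 CPM in tumours). Abcg2, a pump for many drugs, rose from 22.5 and 12.5 to 36.7, 48.2 and 61 CPM (1.48 ± 0.34). The phospholipid exporter Abcb4 was not called (0.27 ± 0.26). Without tumour 2 or wild type 3, 1 exporter was called lower in each case, and none higher without wild type 3.

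Among the enzymes that modify drugs and steroids, 5 of 39 cytochrome P450 genes tested were lower and 2 higher, and 30 had a negative log2 fold change (median −0.54). Without tumour 2, wild type 2 or wild type 3, 2 were lower in each case, and 3 without tumour 3. None was called higher without wild type 2 or wild type 3. Cyp3a11, the main drug-metabolizing P450 of mouse liver, rose from 311 and 383 CPM to 4261, 1948 and 4031 CPM (3.30 ± 0.62, adjusted p = 0.00558). Its neighbours Cyp3a16 and Cyp3a44 in the same cluster fell. Cyp3a16 stood at 185 and 84.7 CPM in wild type and 0.494, 0.908 and 0.304 CPM in tumours. Cyp3a44 went from 167 and 43.5 to 2.22, 0.764 and 0 CPM (−6.76 ± 1.53, edgeR adjusted p = 0.0438). Cyp3a44 was not called by DESeq2, nor by edgeR with tumour 1, 2 or 3 left out. These genes are near-identical, so the split of reads among them is uncertain. Cyp2c37 went from 725 and 695 to 104, 50.1 and 29.4 CPM (−3.54 ± 0.58, adjusted p = 0.00318), while the non-tumour libraries ran from 150 to 710 CPM. Cyp2c55 rose from 0.374 and 0.433 to 4.2, 22.8 and 33.5 CPM (5.61 ± 1.03). The Ahr target Cyp1a1 had 3 counts in all in the tumours, and the ratio of wild type to tumour had a 95% counting interval of 6.21 to 99.1.

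The promoters of Cyp3a11 and Cyp3a16 are shown because the 2 neighbours moved in opposite directions. They are given 5′ to 3′ on the strand of the gene, in coordinates of GRCm38.p6 with RefSeq starts. Both hold the HNF4 letters CAAAGTCCA, in capitals, 1 of 8 patterns searched. In these 250 bases on either strand 0.462% of all genes outside X and Y hold them, and 0.596% of tested genes. Among protein-coding genes with a promoter sequence the share was 0.395% of those called higher and 0.307% of those called lower. Of the other genes called, Treh (higher) and Aspdh (lower) held them.
Cyp3a11 (chr5:145879855-145880104, minus strand): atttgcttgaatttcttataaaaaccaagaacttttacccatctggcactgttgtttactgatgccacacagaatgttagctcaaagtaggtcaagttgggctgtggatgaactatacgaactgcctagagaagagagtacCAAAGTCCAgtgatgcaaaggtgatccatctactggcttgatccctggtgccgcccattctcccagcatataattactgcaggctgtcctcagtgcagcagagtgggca
Cyp3a16 (chr5:145469724-145469973, minus strand): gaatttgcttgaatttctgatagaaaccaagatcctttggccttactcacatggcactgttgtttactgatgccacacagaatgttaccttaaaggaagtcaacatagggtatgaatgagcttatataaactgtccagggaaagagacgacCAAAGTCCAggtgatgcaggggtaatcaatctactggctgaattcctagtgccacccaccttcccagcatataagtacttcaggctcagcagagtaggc
The letters ended 100 bases before the start in Cyp3a11 and 90 bases before it in Cyp3a16.

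Of 29 sulfotransferases and glucuronosyltransferases 5 were lower and none higher (median −0.83). With tumour 2, tumour 3, wild type 2 or wild type 3 left out, 3, 3, 1 and 2 were called. Sult2a8, a hepatic sulfotransferase, had 219.9 and 154 CPM in wild type and 1.67, 1.86 and 1.52 CPM in tumours, the smallest adjusted p of the list (−6.79 ± 0.52, adjusted p = 2.3e-05). Ugt1a6a, which conjugates phenols, went from 63.4 and 65.5 to 5.0, 13.9 and 22 CPM (−2.23 ± 0.55). Sult5a1 (−3.03) and the Sult2a family members Sult2a3 and Sult2a7 were low in all tumours, at 0, 0.573 and 0 CPM for Sult2a3.

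Many antioxidant and glutathione genes were higher. Of 24 genes of the NRF2 pathway and of glutathione metabolism 12 were higher and none lower, with a median of 1.20. Of 24 glutathione transferases 8 were higher and none lower (median 0.96). Most of these calls were lost without wild type 3: with tumour 1, 2, 3 or wild type 2, 3 left out, 9, 8, 6, 4 and 0 NRF2 members and 8, 6, 5, 4 and 1 transferases were called. NRF2 is the transcription factor that answers electrophiles and oxidants.

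Nqo1, its classical quinone reductase target, stood at 5.05 and 4.48 CPM in wild type and 30.6, 22 and 25.5 CPM in tumours (2.45 ± 0.40, adjusted p = 0.00256). Srxn1, which repairs oxidized peroxiredoxins, went from 17.3 and 13.2 to 71.8, 66.9 and 46.2 CPM (2.02 ± 0.38, adjusted p = 0.0061). Gpx4, the peroxidase for membrane lipids, went from 175 and 94.9 to 447, 1008 and 1003 CPM (2.60 ± 0.51). All tumours lay above both wild types for these enzymes. The pentose phosphate enzyme Tkt rose from 91.4 and 76.6 to 153, 359 and 319.5 CPM (1.72 ± 0.33), and Pgd (1.47) and Taldo1 (1.07) with it. Ephx1, Cbr3, Ugdh, Gss and the ferritin heavy chain gene Fth1 (478 and 222 CPM against 892, 1277 and 1251 CPM) completed the called members together with Gpx2. Gpx2 had no counts in wild type, and the lowest tumour lay at least 1.53-fold higher than a floor of 3 counts per library. The heme oxygenase gene Hmox1 (1.85 ± 0.63, adjusted p = 0.079) and Gclc, the rate-limiting enzyme of glutathione synthesis (−0.88 ± 0.30, adjusted p = 0.0798), were not called.

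Among the transferases, Gstm3 stood at 22.2 and 9.63 CPM in wild type and 507, 1315 and 1736 CPM in tumours (6.22 ± 0.81, adjusted p = 0.000691). Gsta1 went from 0.623 and 0 to 29.5, 74.5 and 216 CPM, a wide range among tumours (8.52 ± 1.68). Gstm1 went from 1079 and 674 to 2423, 2762 and 5742 CPM (2.06 ± 0.46) and ranked among the genes with the largest gain in CPM per kb. Gstp1 (1.99), Gstm2 (2.37), Gsta2 (3.55), Mgst3 (2.31) and Gstm6 (0.90) were the other called members, and copies of these families resemble each other closely. Gm3776, a predicted gene near Gsta1 (chromosome 9, 78257129 to 78269166, plus strand), had no counts in wild type and 10.8, 4.06 and 50.9 CPM in tumours, at least 21.7-fold over that floor in the lowest tumour. The antioxidant response letters TGACNNNGC were found in the 250 bases before the start of Ugdh alone among the 12 called NRF2 members. None of the 8 called transferases held them, against 11.7% of all genes and 13.8% of tested genes. Of the members not called that had a promoter sequence, 3 of 9 NRF2 genes and 4 of 14 transferases held them.

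**Figure D3:**
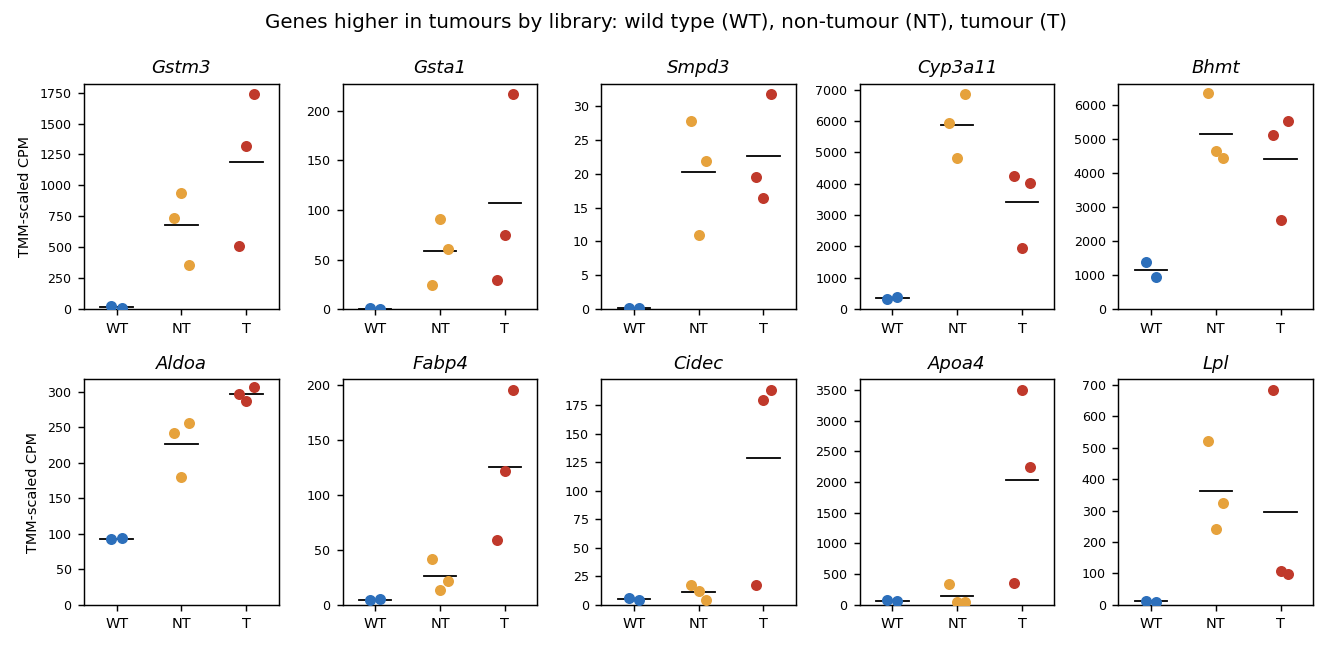
TMM-scaled CPM (vertical axes, from 0) of 10 genes that were higher in tumours, in each library of wild-type (WT, blue, n = 2), non-tumour Abcb11-/- (NT, orange, n = 3) and tumour (T, red, n = 3) female liver; lines are group means. Every tumour lies above both wild types, and apart from Aldoa the tumours are spread widely, as for Apoa4 and Lpl, where 1 tumour stands apart from the others.

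Of 25 female-biased liver genes tested 10 were lower and none higher, with a median of −2.07, the most negative of all 60 lists. Left out in turn, tumours 1, 2 and 3 and wild types 2 and 3 gave 9, 6, 5, 2 and 4 called members. Hao2, a hydroxyacid oxidase of peroxisomes, went from 52.9 and 37.7 CPM to 0.371, 2.53 and 1.22 CPM (−5.02 ± 1.04, adjusted p = 0.0166). The prolactin receptor gene Prlr went from 366 and 209 to 115, 51 and 39.5 CPM (−2.07 ± 0.42, adjusted p = 0.00865). Cyp3a16, Cyp3a44, Sult2a3, Cyp2g1, Cyp7a1, Cyp4a10, Acot3 and Trim24 were the other called members. Male-biased genes had no common direction, with a median log2 fold change of 0, 13 positive values and 13 negative ones. All 3 tumours lay above both wild types for 4 of them and below both for 8. Over all genes tested this held for 24.9% and 27.7%. Of 27 male-biased genes 3 were higher and 1 lower (none in either direction without wild type 2 or wild type 3): Cyp4a12a, a male-specific P450, stood at 0.187 and 0.241 CPM in wild type and 0.309, 3.96 and 4.76 CPM in tumours (3.77 ± 1.02), a low level in all libraries.

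Lipid metabolism shifted in several ways. Of 30 genes of fatty acid oxidation and ketogenesis 7 were lower and none higher (median −0.47). With tumour 2, tumour 3, wild type 2 or wild type 3 left out, 3, 3, 2 and 3 were called. These are in large part targets of Ppara. Cyp4a14, a fatty acid hydroxylase, went from 1323 and 1438 CPM to 256, 232 and 189 CPM (−2.61 ± 0.35, adjusted p = 0.000834). The acyl-CoA thioesterase genes Acot4 (384 and 267 CPM against 38.2, 74.7 and 68.3 CPM, −2.43 ± 0.34, adjusted p = 0.000955), Acot3 (−2.27) and Acot1 (−2.84) fell as well. Cyp4a10 (−1.71), the mitochondrial dehydrogenase gene Acadvl (−1.28) and Pdk4, which holds back glucose oxidation (−1.68), were the rest. The carnitine transferase gene Cpt1a, the gatekeeper of mitochondrial oxidation, was not called (−0.47 ± 0.33, adjusted p = 0.39).

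Of 23 cholesterol synthesis genes 5 were lower and none higher, and 22 had a negative log2 fold change (median −1.17). The count was 3, 2, 5, 2 and 1 with tumours 1, 2 and 3 and wild types 2 and 3 left out in turn, and 11 with DESeq2. Idi1, the isopentenyl isomerase, went from 25 and 31.6 CPM to 0.680, 1.0 and 3.19 CPM (−4.11 ± 0.80, adjusted p = 0.00758). Hsd17b7, a late step of the pathway, went from 69.3 and 71.3 to 10.8, 12.2 and 24.7 CPM (−2.14 ± 0.37, adjusted p = 0.00364). Fdps (−2.89), Msmo1 (−1.96) and Sc5d (−1.22) were lower as well.

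Several lipid storage genes were higher. Of 32 lipogenesis and lipid droplet genes 4 were higher and none lower (median 1.14): Fabp4, Cidec, Cidea and Lpl. With wild type 3 left out 1 was called, and with tumour 1 left out 7. Fabp4, a fatty acid carrier of fat cells and macrophages, stood at 3.99 and 4.96 CPM in wild type and 59.3, 122 and 195 CPM in tumours (4.80 ± 0.67, adjusted p = 0.00145). Cidec, which enlarges lipid droplets, went from 5.73 and 4.38 to 17.2, 179.9 and 188 CPM, with tumour 1 far below the others (4.67 ± 0.96). Cidea had no counts in wild type and 0.124, 43.1 and 6.49 CPM in tumours, of which tumour 1 lay under the floor of 3 counts. Lpl, which frees fatty acids from lipoproteins, was highest in tumour 1 (13.3 and 10.3 CPM against 684, 108 and 97 CPM, 4.64 ± 0.82). Pparg, the master factor of fat storage, rose from 5.61 and 3.71 to 11.2, 13.1 and 24.4 CPM (1.81 ± 0.34, adjusted p = 0.00604).

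Cidec, Cidea, Fabp4 and Pparg also belong to the adipocyte markers, of which 4 of the 6 tested were higher and none lower (median 4.74; 5, 3, 3, 2 and 1 called with tumours 1, 2 and 3 and wild types 2 and 3 left out). The summed level of those 6 was 224, 533 and 755 CPM in tumours 1, 2 and 3, and 72.9 and 97.8 CPM in wild types. The defining markers of fat cells were near 0: Adipoq and Plin1 had 10 counts each in tumour 2 and 0 in the other tumours, and Lep had 0 in all 5 libraries. Of 24 apolipoprotein and lipoprotein genes 2 were higher and 3 lower, and none in either direction without wild type 3. Apoa4, a lipoprotein component made in fatty liver, stood at 76.5 and 59.3 CPM in wild type and 348, 3498 and 2249 CPM in tumours (4.90 ± 1.23). Apoc2 (−1.78), the hepatic lipase gene Lipc (−1.28) and the cholesterol exporter gene Abca1 (−1.06) fell.

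Some glycolysis genes were higher, and the insulin adapter Irs1 was lower. Of 23 glycolysis genes 4 were higher and none lower (median 0.92), and 5, 3, 2, 2 and 1 were called with tumours 1, 2 and 3 and wild types 2 and 3 left out. Aldoa, the aldolase of muscle and growing cells, went from 92.2 and 93.7 CPM to 298, 287 and 307 CPM (1.68 ± 0.26, adjusted p = 0.0019). Gpi1 went from 83.8 and 69.7 to 241, 546 and 325 CPM (2.27 ± 0.36), and Pfkl (0.92) rose as well. The hexokinase gene Hk2, often raised in tumours, was not called (3.69 ± 1.15, adjusted p = 0.0604). Of 18 gluconeogenesis and glycogen genes 2 were lower, G6pc, the enzyme that releases glucose from the hepatocyte (475 and 1174 CPM against 267, 87.5 and 206 CPM, −2.14 ± 0.62), and Ppp1r3c, a glycogen targeting subunit (52.5 and 83 CPM against 27.9, 3.63 and 6.84 CPM), and Pcx, pyruvate carboxylase, was higher (1.21 ± 0.35); none of these calls was made without tumour 2, tumour 3, wild type 2 or wild type 3.

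Irs1, the adapter that passes the insulin signal on, stood at 21.8 and 21.4 CPM in wild type and 1.17, 0.669 and 2.03 CPM in tumours (−4.06 ± 0.52, adjusted p = 0.000625), with the non-tumour libraries between them at 3.2, 4.03 and 6.55 CPM. It was 1 of 4 genes called lower among 42 growth factors and receptors, of which none was higher (median 0.18). The others were Fgf1 (89.1 and 104 CPM against 22.4, 15 and 19.8 CPM, −2.34 ± 0.27), the vessel growth factor Vegfa (580.0 and 819 against 223, 208 and 274 CPM, −1.57 ± 0.30) and the receptor gene Erbb3 (−1.34). Without wild type 3, 2 genes of this list were called. Of 22 hypoxia and angiogenesis genes Vegfa, Nrp2 (−1.58) and Cxcl12 were lower and the Notch ligand Dll4 was higher (1.21), with 1 gene called without wild type 3. Cxcl12, a chemokine that holds blood cells in tissue, stood at 523 and 485 CPM in wild type and 119, 94.8 and 142 CPM in tumours (−2.09 ± 0.27, adjusted p = 0.000682).

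Markers of the pericentral zone, the part of the lobule kept by Wnt signals, numbered 19, of which 4 were lower and none higher (median −0.72). With tumours 1, 2 and 3 and wild types 2 and 3 left out, 9, 1, 2, 2 and 0 were called. All 4 are Wnt targets or regulators: Axin2 (19.1 and 27.5 CPM against 15.2, 6.45 and 5.42 CPM, −1.37 ± 0.40), Rnf43 (−1.35), Notum (−2.0) and Tbx3 (−2.31 ± 0.49). The enzyme Glul (glutamine synthetase), a classical Wnt target of this zone, ranged from 66.3 to 656 CPM among tumours and was not called (−0.72 ± 0.71). Tumour 1 was the highest for Axin2, Tbx3, Notum and Glul.

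Among 24 liver tumour and oncofetal genes Akr1b7, an aldo-keto reductase, was higher (0.374 and 0.241 CPM against 18.8, 6.83 and 3.29 CPM, 4.96 ± 0.93) and Afp lower. Afp, a fetal plasma protein often raised in hepatocellular carcinoma, stood at 15.3 and 16.6 CPM in wild type and 2.9, 1.91 and 3.55 CPM in tumours (−2.51 ± 0.63, adjusted p = 0.0229), with every tumour below both wild types. In all, 14 of the 24 were higher in all tumours than in both wild types, against 24.9% of all genes tested, and the median was 1.10. DESeq2 called 8 of them higher, and without wild type 3 edgeR called none. Of 26 DNA replication genes 18 had a positive log2 fold change (median 0.66). Of the 26, 10 were higher in all tumours than in both wild types, against the same 24.9% of all genes tested. None was called higher (1 by limma-voom, 0 by DESeq2) and 2 were lower. These were E2f8, a repressor of cell cycle genes that promotes polyploidy in hepatocytes (29.3 and 23.3 CPM against 1.73, 2.2 and 1.57 CPM, −3.83 ± 0.56), and the thymidine kinase gene Tk1 (63.6 and 82.7 against 12.8, 12.8 and 15.6 CPM, −2.41 ± 0.40). The cell cycle inhibitor gene Cdkn1b was lower (−1.20), as was the p53-induced Trp53inp1 (−1.35), while Gadd45b (1.71) and Plk2 (1.14) were higher, 2 and 2 of 24 genes of p53 and growth arrest (1 and 0 without wild type 3).

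Markers of several other cell types were higher in the same libraries. Of 21 monocyte and macrophage markers 7 were higher and none lower, all 21 had a positive log2 fold change, and the median was 1.60. Their summed level was 549, 573 and 572 CPM in tumours 1, 2 and 3, and 217 and 145 CPM in wild types 2 and 3. Csf1r, the receptor that macrophages need to live, stood at 22.6 and 26.7 CPM in wild type and 74.7, 71.4 and 64.1 CPM in tumours (1.51 ± 0.28, adjusted p = 0.00549). The complement gene C1qa (2.09), the galectin gene Lgals3 (2.98), Trem2, which marks lipid-laden macrophages (1.18 and 0.578 CPM against 6.98, 15.7 and 8.51 CPM, 3.57 ± 0.87), Cd14, Cd9 and Tyrobp were the other called members. Left out in turn, tumours 1, 2 and 3 and wild types 2 and 3 gave 6, 4, 5, 3 and 0. None of 12 neutrophil, 18 T and NK cell, 14 B and plasma cell or 10 dendritic cell markers was called by edgeR (1, 0, 0 and 1 at an unadjusted p under 0.05) or DESeq2, and limma-voom called 2 T and NK cell and 1 dendritic cell marker lower. Their medians were 1.64, 0.32, 0.29 and 0.53. Kupffer cell markers, those of the resident liver macrophages, numbered 9, of which 1 was higher and none lower (median 0.69). The called marker was Cdh5, which is also on the list of vascular endothelial markers. Summed, the Kupffer cell markers stood at 315, 211 and 174 CPM in tumours 1, 2 and 3, and 180 and 170 CPM in wild types 2 and 3.

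Of 17 cholangiocyte markers 5 were higher and 1 lower (median 1.94; 4, 2, 2, 1 and 0 called higher with tumours 1, 2 and 3 and wild types 2 and 3 left out). The cytokeratin genes of bile duct cells Krt19 (4.11 and 3.47 CPM against 14.7, 36.3 and 20.2 CPM, 2.65 ± 0.74) and Krt7 (2.41 ± 0.66), the matrix protease gene Mmp7 (3.35), Cdh1 (E-cadherin, 2.52 ± 0.51) and Spp1 (osteopontin, 248 and 112 against 609, 765 and 1269 CPM, 2.29 ± 0.68) were higher. Onecut1, which hepatocytes share, was the lower one, and Epcam was not called (1.23 ± 0.74). Some of the higher markers are not exclusive to bile duct cells either. Cdh1 is also on the lists of the periportal zone and of epithelial junctions, Mmp7 on that of matrix remodelling and Spp1 on that of chemokines. Summed, these markers stood at 822, 1040.4 and 1521 CPM in tumours and 376 and 213 CPM in wild types.

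Of 29 epithelial junction and cytokeratin genes 7 were higher and 1 lower (median 1.34; 10, 6, 5, 4 and 0 higher with the same libraries left out). Anxa2, an annexin of cell membranes, went from 10.7 and 7.61 CPM to 31.8, 109 and 96.8 CPM (3.11 ± 0.55, adjusted p = 0.00455), and Anxa3 from 10.2 and 8.33 to 28.7, 46.6 and 81.6 CPM (2.5 ± 0.43). The hepatocyte keratin genes Krt8 (82.3 and 73.1 against 233, 274 and 463 CPM, 2.06 ± 0.45) and Krt18 (1.63 ± 0.40) and the annexin partners S100a10 (2.21) and S100a11 (3.02) were higher, and the claudin gene Cldn12 was lower (−0.97).

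Vascular endothelial markers numbered 16, of which 6 were higher and none lower (median 1.18), with a summed level of 260.0, 523 and 375 CPM in tumours 1, 2 and 3 and 221 and 202 CPM in wild types. Cdh5 (VE-cadherin) went from 8.29 and 7.75 to 14.2, 34.8 and 19.4 CPM (1.51 ± 0.37), and Vwf, Esam, Sox17, Egfl7 and Ly6c1 were higher as well. Ly6c1 had 2 counts in wild type and 0.927, 14.3 and 2.08 CPM in tumours, a ratio with a 95% counting interval of 31.7 to 955. With tumour 2, tumour 3, wild type 2 or wild type 3 left out, 0, 4, 0 and 0 were called. Of 13 sinusoidal endothelial markers 1, Stab1, was higher, at the edge of the threshold (1.02 ± 0.31, adjusted p = 0.04999). Of 18 stellate cell and fibroblast markers 1, the pericyte gene Rgs5, was higher (13.3 and 6.26 against 38.4, 52.5 and 75.4 CPM, 2.5 ± 0.49).

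Matrix genes followed the same direction. Of 40 genes of fibrillar and basement membrane matrix 5 were higher and none lower (median 1.13), and 10, 3, 3, 0 and 0 with tumours 1, 2 and 3 and wild types 2 and 3 left out. They included the basement membrane collagen gene Col4a1 (19.1 and 11.9 CPM against 44.4, 105 and 65.5 CPM, 2.21 ± 0.51), its partner Col4a2 (2.38 ± 0.50), the laminin gene Lama5 (2.34 ± 0.47), Sparc and Postn. The fibrillar collagen genes Col1a1 (2.22 ± 1.09, adjusted p = 0.225), Col1a2 (2.12 ± 0.82) and Col3a1 (1.96 ± 0.90) were not called. Of 36 matrix remodelling genes 5 were higher, among them the growth factor gene Pdgfb (2.17 ± 0.55), the inhibitor gene Timp2 (1.58 ± 0.35) and the integrin gene Itgb5 (1.26 ± 0.28), and none without wild type 3. Tumour 1 was the lowest of the tumours for Col4a1, Col4a2, Lama5, Sparc and Postn. The part of these other cell types in the results above was not tested.

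Of 29 interferon-response genes 5 were lower and none higher (median −0.66; 5, 3, 2, 2 and 1 with tumours 1, 2 and 3 and wild types 2 and 3 left out). The immune GTPase gene Iigp1 went from 272 and 241 CPM to 89, 104 and 88.4 CPM (−1.45 ± 0.25, adjusted p = 0.00364), and Gbp7 (−1.78), Gbp10 (−5.05), Mx2 (−1.33) and Rtp4 (−1.06) were lower. Of 23 acute phase genes 16 had a positive log2 fold change (median 0.71), and the 1 called gene, Hamp2, a copy of the iron hormone hepcidin, was lower (80.9 and 36.2 against 4.76, 6.4 and 0.507 CPM, −3.91 ± 0.91). No acute phase gene was called without wild type 2 or wild type 3, and 9 were called higher without a low-count filter. Tumour 1 stood apart in their summed level, at 39159 CPM against 7845 and 9437 CPM in tumours 2 and 3 and 11010.2 and 6653 CPM in wild types, as did non-tumour 1, at 44965 CPM against 9450.1 and 9029 CPM. Of 27 ER stress and heat shock genes the asparagine synthetase gene Asns, Atf3 and Pdia3 were higher and the stress sensor gene Ern1 was lower (−1.06 ± 0.24); without tumour 3, wild type 2 or wild type 3 none was called. Asns had no counts in wild type, and its lowest tumour lay at least 2.98-fold higher than the floor of 3 counts. Of 30 sphingolipid and phospholipid genes 3 were higher and 2 lower (none without wild type 3). Smpd3, the neutral sphingomyelinase, went from 0.187 and 0.0963 to 19.5, 16.4 and 31.7 CPM (7.29 ± 1.15, adjusted p = 0.00342), with all 3 tumours far above both wild types.

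**Figure D4:**
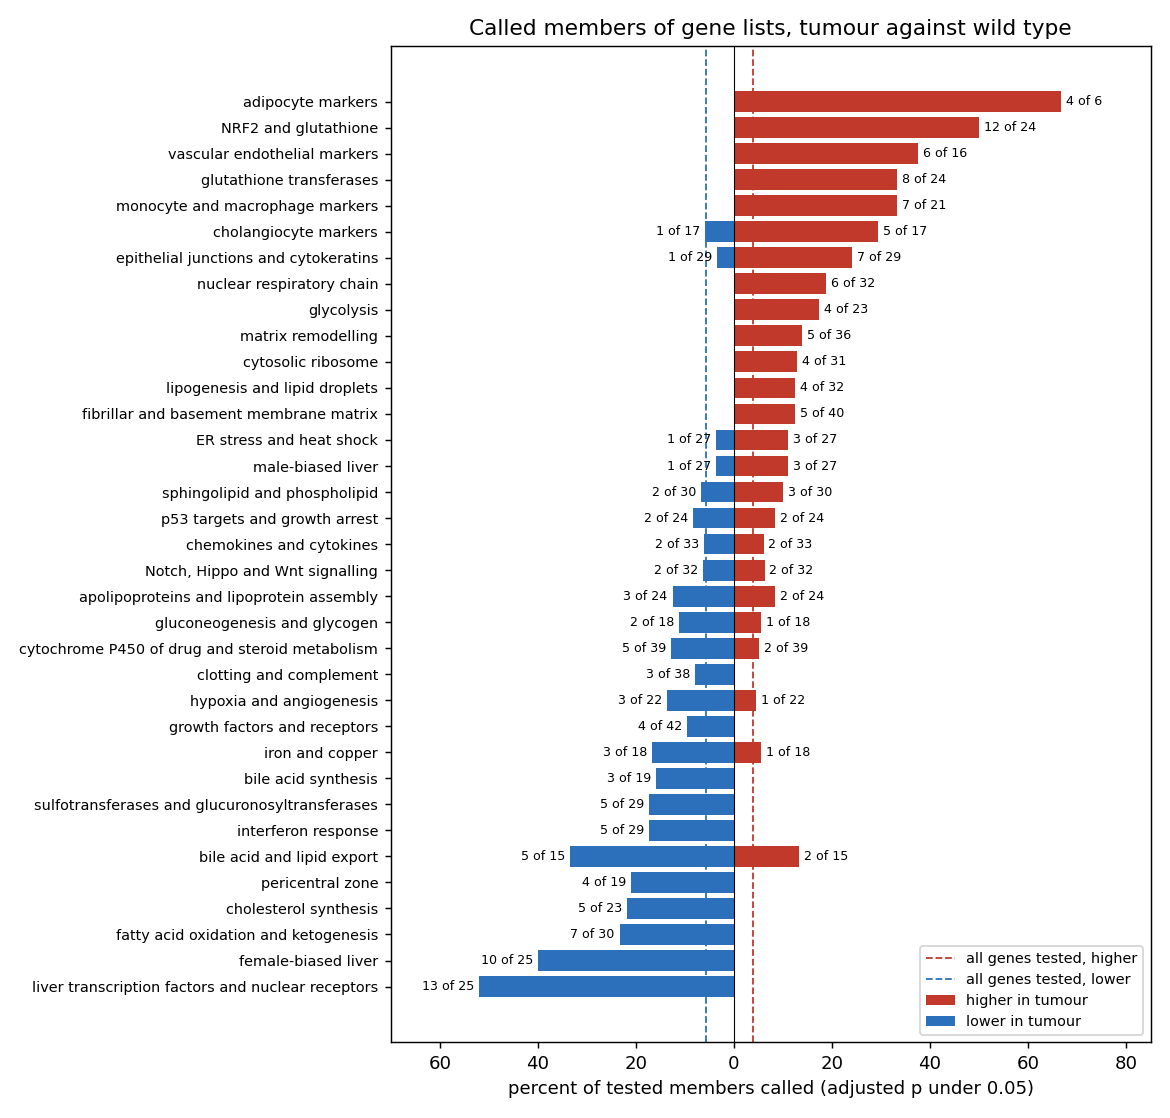
Percent of the tested members of each gene list called higher (red bars, to the right) and lower (blue bars, to the left) in tumours than in wild-type female liver, for lists with at least 3 called members; the counts stand beside the bars and dashed lines give the percent over all genes tested, 4.0% higher and 5.70% lower. The liver transcription factors lie at the lower end with 13 of 25 members lower, and the NRF2 and glutathione genes near the upper end with 12 of 24 higher.

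Among single genes outside these lists, the largest falls by fold included Adrb3, the adrenergic receptor of fat (21.1 and 37.3 CPM against 2.84, 0.669 and 0.811 CPM, −4.36 ± 0.89), the opsin relative Rgr (−5.35), the orphan receptor gene Esrrg (4.18 and 8.62 against 0.185, 0.430 and 0.304 CPM, −4.34 ± 0.96) and Lrtm1 (−4.24). By CPM per kb, large falls were those of Serpina6, the corticosteroid carrier of plasma, whose wild-type libraries differed widely (1084 and 135 CPM against 46.6, 62 and 33.9 CPM, −3.68 ± 0.66), the lectin gene Clec2d (424 and 409.8 against 50.9, 65.5 and 91 CPM, −2.59 ± 0.33), Prodh2 of hydroxyproline breakdown (562 and 782 against 334, 137 and 64.3 CPM, −1.91 ± 0.47), Pcyt2 (−1.20), Rsrp1 (−1.40) and the splicing factor gene Srsf5 (−1.59).

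The largest rises by fold were found in genes near 0 in wild type. Sdcbp2, a syntenin, went from 0.125 and 0.289 CPM to 11.1, 27.3 and 37.5 CPM (6.84 ± 1.14, adjusted p = 0.00386), and Fam83a, a gene raised in several cancers, from 0.249 and 0.144 to 9.39, 24 and 14 CPM (6.30 ± 1.12). Sprr1a and 4930438A08Rik had no counts in wild type; their lowest tumour lay at least 2.31-fold and 1.65-fold higher than the floor of 3 counts per library, and tumour 2 was the highest for both, with 0.309, 36.7 and 22.4 CPM in tumours 1, 2 and 3 for 4930438A08Rik. Wisp2 (6.74, 7.5 and 2.99 CPM in tumours) had 1 count in wild type, a ratio with a 95% counting interval of 37.5 to 8337, and the dynein gene Dnah1 (6.8, 4.97 and 9.58 CPM) had 3, an interval of 29.6 to 424. By level, Bhmt, which remethylates homocysteine, had one of the largest gains per kb: 1381 and 935 CPM in wild type and 5114, 2612 and 5524 CPM in tumours (1.93 ± 0.43, adjusted p = 0.0133).

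Of the other biotypes, Gm45470, an antisense gene within the span of Adrb3 (chromosome 8, 27228686 to 27240332, plus strand), had 1 count in all 3 tumours against 10.1 and 16.1 CPM in wild type, a ratio with a 95% counting interval of 137 to 30380. The sources used here do not state that reads were counted by strand, so its reads and those of Adrb3 cannot be told apart. The intergenic A530001N23Rik also had 1 count in the tumours (7.98 and 8.47 CPM in wild type), and the pseudogene Gm29920 had none, at least 12.4-fold lower than in the lower wild type by the floor. Rises were led by Gm47163 (0 and 0.337 CPM against 9.58, 17.3 and 23.3 CPM, 6.48 ± 1.37), BC049987 (1.25 and 1.16 against 17.6, 56.5 and 69 CPM, 5.31 ± 0.72) and Gm32468 (4.04 ± 1.05).

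Some short genes with housekeeping roles were higher. Of 32 nuclear genes of the respiratory chain 6 were higher and none lower (median 0.80), among them Ndufa10 of complex I (68.7 and 60.4 CPM against 130.2, 144 and 223 CPM, 1.36 ± 0.27), and of 31 ribosomal protein genes 4 were higher and none lower (median 0.99), all 31 with a positive log2 fold change. DESeq2 called 18 of the ribosomal genes. Rpl19 went from 199 and 145 to 410.1, 424 and 414 CPM (1.28 ± 0.27), and Rps15 (1.27) and Rpl36 (1.0), which are outside that list, were among the genes that gained most per kb. With wild type 3 left out neither list had a called member. None of the 13 mitochondrially encoded genes was called by edgeR (2 at an unadjusted p under 0.05; 1 by DESeq2 and 1 by limma-voom), with a median of −0.02.

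These genes differ from the regulators in length, and the fold change moved with length over the whole table. Protein-coding genes called higher had a median length of 2929 bases, those called lower 5997 bases and those not called 4232 bases. In 4 equal groups by gene length, from short to long, the median log2 fold change was 0.43, 0.19, 0.02 and −0.19. In non-tumour liver against the same wild types it was 0.43, 0.14, −0.02 and −0.19. In knockout against wild-type males, which share no library with these, it was 0.05, 0.01, 0.03 and 0.15. Several noncoding classes were lower in the median, which was −0.98 for 670 antisense genes (2 higher, 34 lower), −1.44 for 517 genes marked TEC (to be experimentally verified; 0 higher, 29 lower) and −0.48 for 653 intergenic RNAs (9 higher, 43 lower). Processed pseudogenes went the other way, with a median of 0.36 over 677 genes (23 higher, 11 lower). When the length trend was removed from each library, 1422 genes were called, 1345 of them among the 1683. The 13 transcription factor and nuclear receptor genes became 11, the 12 NRF2 genes 10, the 6 respiratory chain genes 2 and the 4 ribosomal genes 2.

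**Figure D5:**
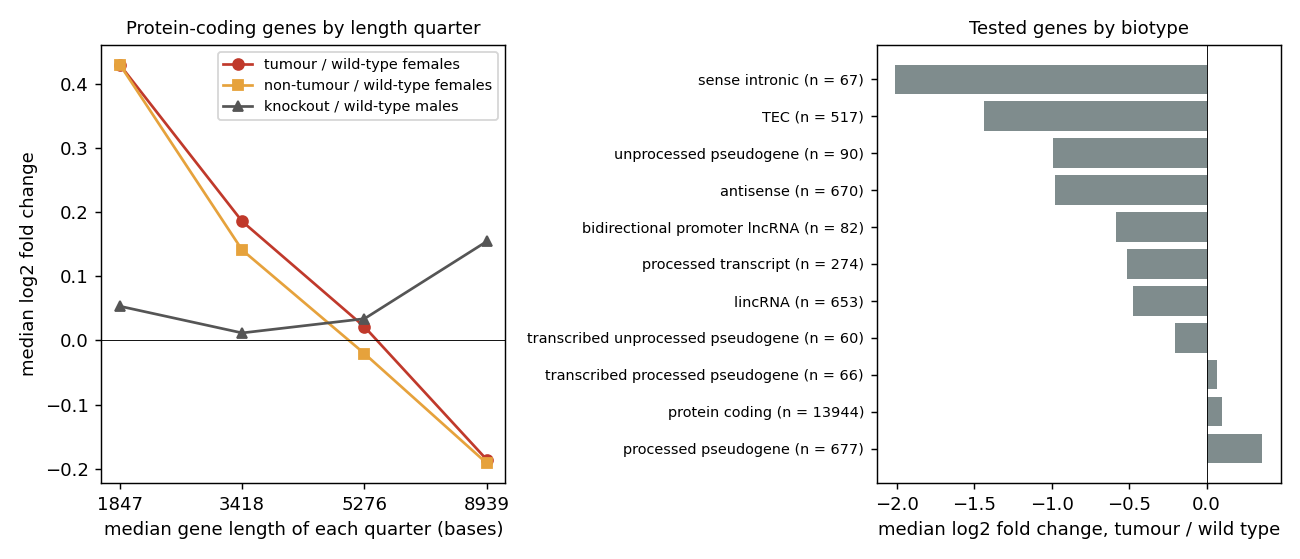
Left, median log2 fold change of protein-coding genes (vertical axis) in 4 equal groups by gene length (horizontal axis, median bases of each group) for tumour against wild-type females (red), non-tumour against wild-type females (orange) and knockout against wild-type males (grey). Right, median log2 fold change of tumour against wild-type females for each biotype with at least 60 tested genes; the female medians fall from 0.43 to −0.19 with length, and sense intronic (−2.01), TEC and antisense genes lie below protein-coding genes (0.10).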

How the data were processed

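Per the submitters' processing notes, reads were aligned with HISAT2 2.0.5 to the mouse build GRCm38 and counted per gene with featureCounts 1.5.0-p3, and the strand setting is not given in the sources used here. The authors deposited whole-number counts per gene and, beside them, FPKM values, which were not used for any value printed. All 54532 genes and 14 libraries entered 1 edgeR fit (version 4.0.16, R 4.3.3): genes were kept with filterByExpr on the 5 groups, libraries scaled by TMM, and quasi-likelihood F tests run with robust dispersions. P-values were adjusted over all 17874 genes tested, and genes of X and Y (526 tested) were then left out. CPM values are counts per 1000000 of the TMM-scaled library total. Standard errors were derived from each test as the size of the log2 fold change over the root of its F statistic. Intervals and floors cover counting error only. The 5 libraries held 29.1% to 34.6% mitochondrial counts.

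The members and the 60 gene lists were chosen with earlier results of these data known. Genes were named by rule: the 12 largest protein-coding rises and falls by fold and the 10 largest by CPM per kb (at least 5 CPM in the higher group, no overlap between libraries), 3 of other biotypes in each direction, the first 3 members of a list and the 6 of smallest p. Other called members of lists, genes with a motif match, and Hnf4a, Mki67 and Slc51a were named after their values were seen. Promoters are the 250 bases before RefSeq starts (GRCm38.p6), and 8 patterns were searched. The test was tried on simulated data with 200 of 17874 genes changed, where it recovered 50% of 4-fold and 4% of 2-fold changes at 6.9% false calls. limma 3.58.1 and DESeq2 1.42.0 served as alternatives. Genes of families with near-identical copies (Cyp3a, Cyp2c, Cyp4a, Gsta, Gstm, Sult2a) may share reads. Some genes are not reported here.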

Additional observations from a re-analysis of the deposited data

How the results depend on the processing

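None of the 1683 called genes changed sign under any alternative fit. The count was 1656 and 1687 under RLE and upper-quartile scaling and 1838 with a filter of 1 CPM in 3 libraries. Without a low-count filter it was 2464, with 1350 higher and 1114 lower, so that 54.8% of the calls were higher against 41.2% in the reported fit; 27943 genes were then tested, among them many with counts in 1 group alone. The 5 compared libraries alone gave 2388 (1090 higher, 1298 lower). DESeq2 called 2963 (1419 higher, 1544 lower) and limma-voom 4472 (1952 higher, 2520 lower). Leaving out 1 library gave 160 to 1345 calls in all, 22 to 620 higher and 138 to 725 lower. Chosen after seeing the data, a fit of protein-coding genes alone called 1601 and removal of the length trend 1422. Of the 193 called genes named here, 189 stayed called under RLE scaling, 191 under DESeq2 and 176 with the length trend removed, and 38 with each library left out in turn.

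Over 8444 genes, deviations from the group mean correlated at 0.0095 for tumour 2 with wild type 2. For tumour 3 with wild type 3 the value was −0.068. With only 2 wild-type libraries the deviations of one mirror those of the other, so tumour 2 with wild type 3 gave −0.0095. These values therefore cannot decide whether equal numbers mark a shared batch. Pairing of tumour with non-tumour libraries was not tested in this way. With the replicate number as a replicate block 1343 genes were called (548 higher, 795 lower), and 170 of the 193. Between tumour and non-tumour knockout liver the edgeR count of 0 became 337 without a low-count filter, 1 with the replicate block, 28 by DESeq2 and 0 to 42 with 1 library left out (42 without tumour 1). The cause of these differences was not tested. With 2 wild-type libraries, changes near 2-fold were seldom recovered in simulation. The simulation changed 200 of 17874 genes, a smaller share than the 9.70% called in the data, so its recovery need not hold here. Its counts were drawn around the mean of each gene over all 14 libraries, without a trend with gene length. Its share of false calls therefore need not hold here either.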

Other observations

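Among the 141 genes that edgeR called with each of the 5 libraries left out in turn, 120 were lower in tumours and 21 higher, and several belong to groups not described above. They were picked here after their values were seen, and that choice fixed that they stayed called in each of those fits. Genes of splicing and RNA processing were among those lower. Hnrnpa3, which binds nascent RNA, stood at 65.6 and 94.7 CPM in wild types 2 and 3 and at 12.8, 11.4 and 12.7 CPM in tumours 1, 2 and 3 (−2.70 ± 0.25, edgeR adjusted p = 0.000128). The splicing factor gene Srsf2 went from 215 and 291 to 70.2, 53.2 and 89 CPM (−1.84 ± 0.25), Srrm2, a component of nuclear speckles, from 485 and 632 to 162, 166 and 199 CPM (−1.67 ± 0.27), and Pnn from 158 and 182 to 44.7, 36.1 and 53.1 CPM (−1.93 ± 0.23). For each of these the groups did not overlap. The receptor gene Lifr, which passes on leukemia inhibitory factor, was lower too, with wild-type libraries that differed widely (672 and 168 CPM against 53.5, 47.3 and 36.4 CPM, −3.20 ± 0.43). The developmental factor gene Sall1 went from 160.3 and 214 to 27.3, 47.7 and 33.7 CPM (−2.37 ± 0.32), and Klf9, which answers glucocorticoids, from 15.4 and 27.9 to 3.21, 3.15 and 4.26 CPM (−2.61 ± 0.36).

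Among the 21 higher genes was Alpl, the alkaline phosphatase that rises in cholestasis: 12.3 and 18.9 CPM in wild type and 72.3, 99.7 and 143 CPM in tumours (2.75 ± 0.32, adjusted p = 0.000456), with 57.4, 69.2 and 76.4 CPM in the non-tumour libraries. Snhg11, a host gene of small nucleolar RNAs, went from 6.73 and 8.96 to 148, 241 and 178 CPM (4.59 ± 0.59). Nol3, an inhibitor of cell death, was near 0 in wild type (0.187 and 0.193 CPM) and even among tumours (9.21, 8.88 and 9.53 CPM, 5.55 ± 0.63). The glutamate carrier gene Slc1a1 showed the same pattern (0.125 and 0.193 CPM against 6.92, 3.68 and 5.93 CPM, 5.03 ± 0.54).

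The livers of Abcb11-/- males were compared with those of wild-type males in libraries that share none with the females. Of the 989 genes lower in tumours 729 had a positive log2 fold change in males, 345 were called higher there and 65 lower, with a median of 0.56. Of the 694 genes higher in tumours 439 had a positive one, 174 were called higher and 53 lower, with a median of 0.26. Of all 17348 genes tested 9429 had a positive one in males, 2476 were called higher and 1113 lower, with a median of 0.11. Genes with counts numbered 15422, 15308 and 17520 in wild-type males 1, 2 and 3. In Abcb11-/- males 1, 2 and 3 they numbered 18862, 19848 and 21027. The part of this difference in the male values was not tested. Idi1 had a log2 fold change of 4.98 ± 0.88 in males (adjusted p = 0.00163) against −4.11 ± 0.80 in tumours, Serpina6 2.70 ± 0.61 (adjusted p = 0.00787) against −3.68 ± 0.66, and Srsf2 1.57 ± 0.23 (adjusted p = 0.000534) against −1.84 ± 0.25. In non-tumour liver of Abcb11-/- females, which was compared with the same wild types as the tumours, these 3 genes were also lower, with log2 fold changes of −2.91 for Idi1 (edgeR adjusted p = 0.0468), −2.58 for Serpina6 (adjusted p = 0.041) and −1.0 for Srsf2 (adjusted p = 0.0388). The 822 protein-coding genes lower in tumours had a median of −0.96 in non-tumour females and 0.48 in males. The difference between the female and male contrasts was not tested.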
